A study of Mus musculus with 10 samples.

Results

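The tubulin isotypes described here are 10 genes, 4 for alpha-tubulin (Tuba1a, Tuba1b, Tuba1c and Tuba8) and 6 for beta-tubulin (Tubb2a, Tubb2b, Tubb3, Tubb4b, Tubb5 and Tubb6), of the 55291 genes in the deposited table. They were chosen by gene symbol, as cytoskeletal genes of an injured liver. The study asked how loss of Bap1, a deubiquitinase that acts on histone H2A, changes the mouse liver and its answer to injury by carbon tetrachloride (CCl4). RNA from the livers of 10 mice was sequenced. The animals were females of 16 to 20 weeks with a Cas9 allele behind a Lox-Stop-Lox cassette, and each received an AAV8 vector with a U6-driven guide RNA and Cre under the TBG promoter. The vehicle was olive oil, and the injury groups received 1 part of CCl4 to 9 parts of this oil. The volume was 10 µL for each g of body weight, given into the peritoneum on day 10. Livers were collected 48 h after that. The groups were NTC-Veh (non-targeting control guide and vehicle, 2 mice), sgBap1-Veh (Bap1 guide and vehicle, 2 mice), NTC-CCl4 (control guide and CCl4, 3 mice) and sgBap1-CCl4 (Bap1 guide and CCl4, 3 mice). All 4 groups carried Cas9, the vector and Cre. The TBG promoter is active in hepatocytes, so editing was limited to the hepatocytes that the vector reached, while the RNA came from all cells of the tissue.

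The libraries held 46.7 M and 42.4 M estimated counts in NTC-Veh, 44.4 M and 33 M in sgBap1-Veh, 41.5 M, 47.3 M and 33.3 M in NTC-CCl4, and 52.2 M, 47.3 M and 43.5 M in sgBap1-CCl4, in the order of the replicate numbers. Levels are given below in this order, as CPM, the counts of a gene per M counts of the library after TMM scaling, where M stands for mega. A count of 3, the most that a count of 0 allows, corresponded to between 0.0511 and 0.112 CPM in a liver. Such limits, and the intervals on ratios of counts, cover counting error alone. A gene was called where edgeR's quasi-likelihood test, adjusted by the Benjamini-Hochberg method over the 17015 genes tested, gave an adjusted p under 0.05. All 10 isotypes were among the tested genes, and Tubb2b and Tubb3 were there through the CCl4 livers, where they were high.

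Alpha- and beta-tubulin pair into the dimers from which microtubules are built. Each is encoded by several genes whose proteins differ mainly in an acidic tail at the carboxyl end, where enzymes add and remove glutamate, glycine and tyrosine and where motors and other proteins bind. In hepatocytes microtubules carry secretory vesicles and bile transporters, and in dividing cells they form the spindle. Free tubulin dimers feed back on their own supply, since the nascent chain of a tubulin being translated is recognised and its mRNA degraded when dimers are in excess.

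Bap1 itself served as the check of the labels. Its level was 34.8 and 34.8 CPM in NTC-Veh against 17.5 and 19.5 CPM in sgBap1-Veh, and 30.1, 31.5 and 29.5 CPM in NTC-CCl4 against 17.0, 21.8 and 19.1 CPM in sgBap1-CCl4. Each liver with the Bap1 guide lay below each liver with the control guide. The log2 fold change of Bap1 was −0.91 (SE 0.12, n = 2 and 2, edgeR adjusted p = 0.0172) with vehicle and −0.65 (SE 0.09, n = 3 and 3, edgeR adjusted p = 0.0307) with CCl4. With each liver left out in turn the Bap1 values ran from −0.99 to −0.84 and from −0.75 to −0.57, and the edgeR adjusted p rose to at most 0.115 and 0.147, and over all 20 alternatives the calls were lost in 4 and 9.

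The isotypes are near copies of each other to different degrees, which sets how well short reads tell them apart. In the reference transcripts of GENCODE on GRCm38 the coding sequences of Tuba1a and Tuba1b were identical at 98.3% of positions, those of Tuba1b and Tuba1c at 98% and those of Tubb2a and Tubb2b at 96.5%, while Tuba8 matched the other alpha members at 79.4% to 80.4%. Any other pair of beta members matched at 80.4% to 86.1%. Of all stretches of 50 bases, the read length, in the Tuba1a transcript, 72.9% were also found in another gene, and the share was 66.7% for Tuba1b, 52.7% for Tuba1c, 49.6% for Tubb2a, 36.9% for Tubb2b and 37.8% for Tubb4b, whose main partner is the pseudogene Tubb4b-ps1. It was 0.181% for Tuba8, 0.0892% for Tubb5 and 0% for Tubb3 and Tubb6. The values of Tuba1a, Tuba1b, Tuba1c, Tubb2a, Tubb2b and Tubb4b are therefore uncertain as single genes, since the authors' counting could have split reads among copies. Overlapping genes add to this for Tuba1a and Tuba1b (Gm49450, same strand) and, unless strand was used, for Tuba1b (Gm41396), Tuba8 (Gm15856) and Tubb4b (Fam166a). Tubb3 also overlaps a gene on the same strand (Gm20388), but their reference transcripts share no stretch of 50 bases.

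The genes lie apart in the genome save for the Tuba1 and Tubb2 copies. On GRCm38, Tuba1b (ENSMUSG00000023004.8) is at chr15:98931425-98934565, Tuba1a (ENSMUSG00000072235.6) at chr15:98949837-98953703 and Tuba1c (ENSMUSG00000043091.9) at chr15:99029891-99038110. Tubb2a (ENSMUSG00000058672.7) and Tubb2b (ENSMUSG00000045136.6) are neighbours at chr13:34074274-34078007 and chr13:34126748-34130466. Tuba8 (ENSMUSG00000030137.8) is on chromosome 6, Tubb3 (ENSMUSG00000062380.4) on chromosome 8, Tubb4b (ENSMUSG00000036752.4) on chromosome 2 and Tubb5 (ENSMUSG00000001525.10) on chromosome 17. Tubb6 (ENSMUSG00000001473.7) has no close copy.

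The ends of the coding sequences show where the isotypes part. The last 20 codons before the stop codon are given for 6 of the isotypes from the GRCm38 transcripts, with glutamate codons in capitals, because this tail is the stretch in which isotype proteins differ most and on which the modifying enzymes described further on act.
Tuba8: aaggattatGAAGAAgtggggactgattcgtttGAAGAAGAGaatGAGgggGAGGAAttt
Tuba4a: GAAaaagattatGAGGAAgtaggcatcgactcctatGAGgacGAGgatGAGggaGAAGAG
Tubb2a: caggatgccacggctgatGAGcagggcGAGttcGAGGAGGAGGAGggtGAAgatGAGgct
Tubb2b: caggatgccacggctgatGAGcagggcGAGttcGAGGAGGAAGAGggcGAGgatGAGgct
Tubb3: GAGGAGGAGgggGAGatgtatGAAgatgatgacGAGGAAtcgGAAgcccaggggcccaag
Tubb4b: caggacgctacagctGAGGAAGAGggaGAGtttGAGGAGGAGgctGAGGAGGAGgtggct
Tubb5: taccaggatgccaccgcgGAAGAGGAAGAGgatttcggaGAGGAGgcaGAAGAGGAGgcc
The tail holds 9 glutamate codons in Tubb5, 10 in Tubb4b and 8 in Tuba8, Tubb2a, Tubb2b and Tubb3. The last codon is for phenylalanine in Tuba8 and for glutamate in Tuba4a, an alpha-tubulin gene outside the 10 that is shown for comparison.

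With CCl4, 9 of the 10 isotypes rose in control-guide livers, where edgeR called 53.8% of all tested genes, 27.5% as higher and 26.3% as lower, and 59.1% had an unadjusted p under 0.05. The median log2 fold change of the 10 was 2.19, also with Tubb3 set to the lower end of its counting interval, against 0.03 over all tested genes. In Bap1-guide livers all 10 isotypes rose, and the Tuba8 call was lost in 10 of 20 alternatives. Of all tested genes 56.7% were called there, 29% as higher and 27.7% as lower, and 61.6% had an unadjusted p under 0.05. The medians there were 2.20 and 0.04. These counts describe genes chosen with results of these data known, and they were not tested as a list. Tubb2b and Tubb3, which were tested through their high CCl4 livers, are among the genes counted. Scaling by library size alone moved the median of all genes by 0.47 and 0.48 on the log2 scale in these comparisons and the share of calls that were higher from 51.1% to 80.7% and from 51.2% to 78.5%, and the calls of the 9 and the 10 isotypes stood under it. In a bulk tissue, more cells of a type and more RNA per cell cannot be told apart.

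**Figure D1:**
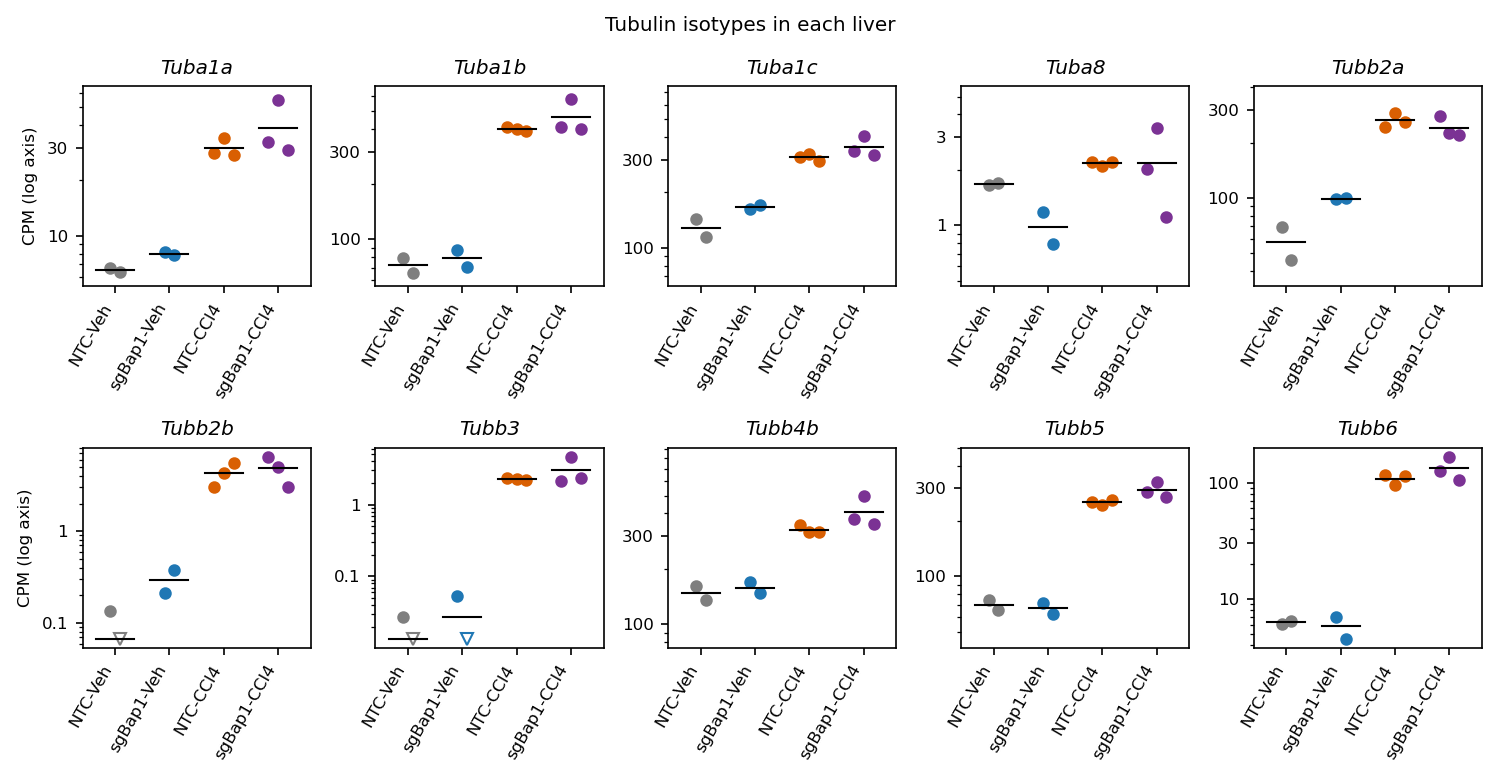
CPM of each tubulin isotype (vertical, log axis, each panel with its own range) in the 10 livers by group, with 1 point per liver and a bar at the group mean; open triangles stand for livers with 0 counts and are placed below the lowest value. In 9 panels each CCl4 point is above each vehicle point of the same guide, and Tuba8 is the exception in the Bap1-guide groups. Of all tested genes 36.7% lay wholly above with the control guide and 37.3% with the Bap1 guide.

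Among the alpha-tubulins, Tuba1b, a main alpha isotype of most tissues, rose from 78.9 and 65.3 CPM in NTC-Veh to 407, 398 and 390 CPM in NTC-CCl4. With the Bap1 guide it rose from 87.3 and 70.7 CPM to 407, 581 and 396 CPM. The lowest CCl4 liver lay well above the highest vehicle liver under both guides. The log2 fold change of Tuba1b was 2.47 (SE 0.19, n = 3 and 2, edgeR adjusted p = 5.01e-06) with the control guide and 2.55 (SE 0.19, n = 3 and 2, edgeR adjusted p = 3.98e-06) with the Bap1 guide.

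Tuba1a, the alpha isotype best known from growing neurons, was a minor transcript with the same direction. It measured 6.7 and 6.35 CPM in NTC-Veh and 28.2, 33.9 and 27.6 CPM in NTC-CCl4, then 8.18 and 7.82 CPM in sgBap1-Veh and 32.2, 54.7 and 29.2 CPM in sgBap1-CCl4. All CCl4 livers were above all vehicle livers, and sgBap1-CCl4 replicate 2 stood above the rest. The log2 fold changes of Tuba1a were 2.20 (SE 0.27, edgeR adjusted p = 0.000118) and 2.27 (SE 0.27, edgeR adjusted p = 8.91e-05) with the control and the Bap1 guide.

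Tuba1c, also broadly expressed, began from a higher level and rose less. Its values were 143 and 115 CPM in NTC-Veh, 311, 325 and 298 CPM in NTC-CCl4, 162 and 170 CPM in sgBap1-Veh, and 336, 408 and 321 CPM in sgBap1-CCl4. The groups did not overlap, with log2 fold changes of 1.27 (SE 0.14, edgeR adjusted p = 3.52e-05) and 1.09 (SE 0.14, edgeR adjusted p = 8.58e-05). With the counts of Tuba1a, Tuba1b and Tuba1c summed to 1 gene, a form in which reads shared among them do not matter, the log2 fold changes were 1.84 (SE 0.17) and 1.75 (SE 0.17).

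Tuba8, an alpha isotype of muscle, testis and brain, was a minor transcript, with 21 to 198 counts in a liver. It had 1.66 and 1.69 CPM in NTC-Veh, 2.2, 2.1 and 2.21 CPM in NTC-CCl4, 1.18 and 0.786 CPM in sgBap1-Veh, and 2.01, 3.39 and 1.11 CPM in sgBap1-CCl4. The control-guide groups did not overlap, yet the log2 fold change of 0.37 (SE 0.39, edgeR adjusted p = 0.449) was not called. In Bap1-guide livers replicate 3 with CCl4 lay below a vehicle liver, and the log2 fold change was 1.13 (SE 0.41, edgeR adjusted p = 0.0381). This Tuba8 call was lost in 10 of 20 alternatives, among them 9 of the fits without 1 liver. Without sgBap1-CCl4 replicate 2 its log2 fold change was 0.65 (edgeR adjusted p = 0.121), and the adjusted p ran from 0.00352 to 0.208 over the alternatives.

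Among the beta-tubulins, Tubb5, the broadly expressed beta isotype of dividing cells, had 73.9 and 65.7 CPM in NTC-Veh and 253, 244 and 261 CPM in NTC-CCl4. With the Bap1 guide it had 71.5 and 62.7 CPM against 288, 327 and 269 CPM. Replicates lay close together and far from the other treatment. The log2 fold change of Tubb5 was 1.85 (SE 0.12, edgeR adjusted p = 2.35e-06) with the control guide and 2.13 (SE 0.12, edgeR adjusted p = 1.13e-06) with the Bap1 guide.

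Tubb4b, a beta isotype of most tissues that is also used in cilia, was the most abundant isotype of the vehicle livers per length and rose the least of the called beta members in control-guide livers. Its values were 161 and 136 CPM in NTC-Veh, 347, 316 and 317 CPM in NTC-CCl4, 169 and 147 CPM in sgBap1-Veh, and 372, 501 and 349 CPM in sgBap1-CCl4. CCl4 and vehicle livers did not overlap, and the log2 fold changes were 1.14 (SE 0.17, edgeR adjusted p = 0.000249) and 1.36 (SE 0.17, edgeR adjusted p = 7.31e-05).

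Tubb2a, a beta isotype first described in brain, had 69.7 and 46.3 CPM in NTC-Veh and 243, 291 and 259 CPM in NTC-CCl4. In Bap1-guide livers it had 98.4 and 100 CPM with vehicle and 278, 227 and 220 CPM with CCl4. The vehicle livers of the guides did not overlap, a difference edgeR did not call, and the CCl4 livers did, which is taken up with the guide comparisons. The log2 fold change with CCl4 was 2.19 (SE 0.19, edgeR adjusted p = 7.6e-06) with the control guide and 1.28 (SE 0.18, edgeR adjusted p = 0.000157) with the Bap1 guide.

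Tubb6, a beta isotype that rises in regenerating muscle, went from a minor to a main beta transcript. It measured 6.1 and 6.48 CPM in NTC-Veh, 116, 94.7 and 114 CPM in NTC-CCl4, 7.05 and 4.57 CPM in sgBap1-Veh, and 126, 167 and 106 CPM in sgBap1-CCl4. No other isotype with more than a few counts in the vehicle livers changed as much, at 4.10 on the log2 scale (SE 0.25, edgeR adjusted p = 2.35e-06) with the control guide and 4.50 (SE 0.25, edgeR adjusted p = 1.39e-06) with the Bap1 guide. These are folds of 17.2 and 22.7. Tubb6 shares no 50-base stretch with another gene, so its value does not rest on how reads were split.

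Tubb3, the beta isotype used as a marker of neurons, was almost absent without injury. Its counts were 1 and 0 in NTC-Veh and 2 and 0 in sgBap1-Veh, against 109, 119 and 85 in NTC-CCl4 and 127, 272 and 111 in sgBap1-CCl4. In CPM the CCl4 livers stood at 2.32, 2.24 and 2.21 with the control guide and at 2.16, 4.66 and 2.36 with the Bap1 guide. The CPM ratio of Tubb3 was 164 (95% exact counting interval 29.3 to 6517) with the control guide and 99.2 (27.3 to 821) with the Bap1 guide. Both were called by edgeR (adjusted p = 3.41e-05 and 2.95e-05). Since Tubb3 was tested through its high CCl4 livers, these calls add no support beyond the counts. The intervals are wide since the vehicle groups held 1 and 2 counts in all, under the limit of 3 counts over the group that corresponds to 0.0412 and 0.047 CPM. The fitted log2 fold change of Tubb3 was 9.66 without NTC-Veh replicate 1 and 10.10 without sgBap1-Veh replicate 1, the livers that held these counts, so its size is not fixed by the data.

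Tubb2b, a beta isotype of developing brain, had counts of 5 and 0 in NTC-Veh, 8 and 10 in sgBap1-Veh, 141, 226 and 213 in NTC-CCl4, and 380, 290 and 143 in sgBap1-CCl4. Its level with CCl4 was 3.01, 4.25 and 5.54 CPM with the control guide and 6.47, 4.96 and 3.04 CPM with the Bap1 guide. The CPM ratio of Tubb2b was 61 (95% exact counting interval 26 to 188) and 17.6 (11 to 29.8), with edgeR adjusted p = 9.23e-05 and 0.000275. Tubb2b was also tested through its high CCl4 livers, so these calls add no support beyond the counts. The log2 fold change of Tubb2b in control-guide livers was 5.90, and it was 10.58 without NTC-Veh replicate 1, which held all vehicle counts of that guide. Summed with Tubb2a, whose sequence it shares, it gave 2.21 (SE 0.19) and 1.31 (SE 0.18), close to Tubb2a alone.

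**Figure D2:**
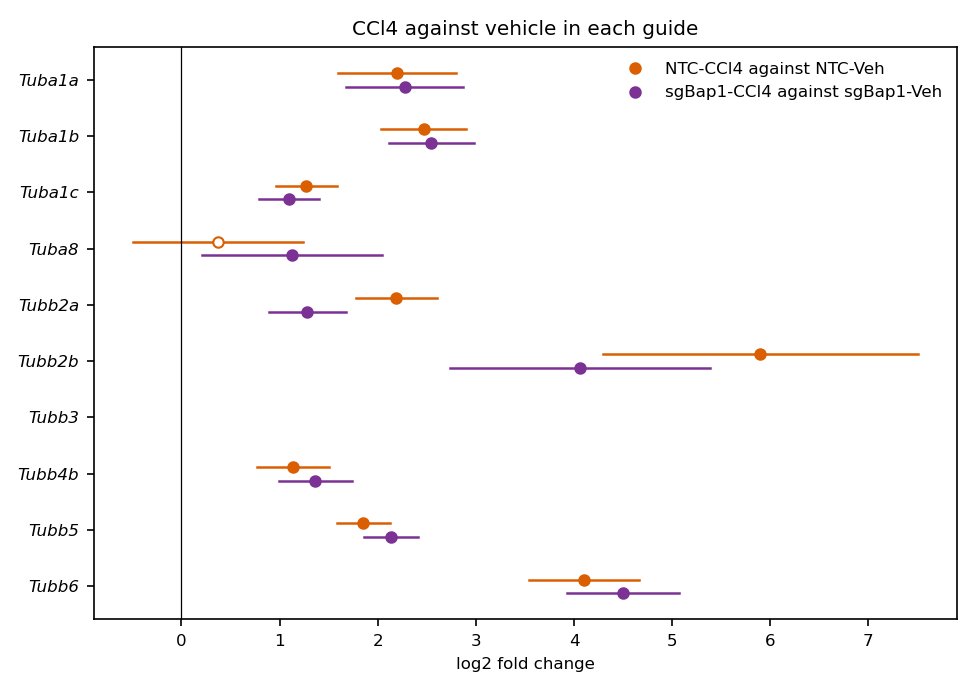
Log2 fold change of each isotype with CCl4 against vehicle (horizontal) in control-guide and Bap1-guide livers, with 95% intervals as lines; filled points passed edgeR's threshold and the open point did not. Tubb3 is left out because its vehicle groups held 1 and 2 counts. Tuba8 with the control guide, at 0.37, is the open point, and Tubb2a is the isotype whose intervals under the guides do not overlap.

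Per kilobase of transcript, the order of the isotypes changed with injury. In NTC-Veh the mean level was highest for Tubb4b (93.1 CPM per kb, SD 11.2), then Tuba1c (65.0, SD 9.93), Tuba1b (41.3, SD 5.52), Tubb2a (36.0, SD 10.3) and Tubb5 (26.4, SD 2.19). Neighbours from Tuba1b to Tubb5 did not all differ beyond their spread, since Tubb2a lay within 1 SD of both. Tuba1a (3.62) and Tubb6 (3.58) were not apart either, and Tuba8 (0.74), Tubb2b (0.0312) and Tubb3 (0.00729) came last. In NTC-CCl4 Tuba1b was first (229 CPM per kb, SD 4.69), ahead of Tubb4b (205, SD 10.9), with Tubb2a (164, SD 15.1) and Tuba1c (157, SD 6.74) within their spread, then Tubb5 (95.3), Tubb6 (61.5), Tuba1a (16.6), Tubb2b (1.95), Tubb3 (1.21) and Tuba8 (0.959).

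The order with the Bap1 guide was much the same. In sgBap1-Veh it ran Tubb4b (99.0 CPM per kb, SD 9.91), Tuba1c (83.9, SD 2.93), Tubb2a (61.7, SD 0.746), Tuba1b (45.3, SD 6.72), Tubb5 (25.3), Tuba1a (4.44), Tubb6 (3.30), Tuba8 (0.435), Tubb2b (0.135) and Tubb3 (0.0144). In sgBap1-CCl4 the means of Tuba1b (265 CPM per kb, SD 59.7) and Tubb4b (255, SD 51.4) lay within their spread, followed by Tuba1c (179), Tubb2a (150), Tubb5 (111), Tubb6 (75.6) and Tuba1a (21.5). Tubb2b (2.21, SD 0.788), Tubb3 (1.64, SD 0.742) and Tuba8 (0.958, SD 0.508) closed that order, and neighbours among them did not differ beyond their spread.

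Alpha and beta transcripts grew side by side. Summed over the 8 alpha-tubulin genes of the table, including those outside the 10, the level was 183 and 151 CPM per kb in NTC-Veh and 446, 464 and 433 in NTC-CCl4, with 214 and 190 in sgBap1-Veh and 475, 616 and 455 in sgBap1-CCl4. The sum over 8 beta-tubulin genes was 176 and 143 CPM per kb in NTC-Veh, 532, 528 and 527 in NTC-CCl4, 199 and 181 in sgBap1-Veh, and 591, 679 and 519 in sgBap1-CCl4. Alpha exceeded beta in all 4 vehicle livers and beta exceeded alpha in all 6 CCl4 livers. This difference of sums was not tested.

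Within the alpha sum, Tuba1b took the place of Tuba4a. Tuba1b made up 24.7% and 24.7% of alpha transcripts per kb in NTC-Veh and 52.3%, 49.2% and 51.8% in NTC-CCl4, and 23.4% and 21.4% against 49.1%, 54.1% and 49.8% with the Bap1 guide. Tuba4a, the alpha isotype that ends in a glutamate codon, made up 33.6% and 34.2% in NTC-Veh and 8.74%, 11.3% and 9.72% in NTC-CCl4, and 35.9% and 30.9% against 11.3%, 7.34% and 10.9% with the Bap1 guide. These shares do not depend on library scaling, and no liver of a treatment reached into the range of the other. The mean share of Tuba1c was 38.8% in NTC-Veh and 35.1% in NTC-CCl4. Tuba4a is described here because its share was seen to move. Its own level was 175 and 147 CPM in NTC-Veh and 111, 149 and 119 CPM in NTC-CCl4 (log2 fold change −0.35, edgeR adjusted p = 0.085), and 218 and 167 CPM against 153, 129 and 141 CPM with the Bap1 guide. There it fell by 0.45 on the log2 scale (SE 0.16, edgeR adjusted p = 0.0321), while scaling by library size alone turned the Tuba4a value to 0.02. Without sgBap1-Veh replicate 1 the value was −0.24 (edgeR adjusted p = 0.319), and over the alternatives the adjusted p ran from 0.0162 to 0.902.

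Within the beta sum, the mean share of Tubb4b went from 58.6% in NTC-Veh to 38.6% in NTC-CCl4 and that of Tubb6 from 2.28% to 11.6%. By liver Tubb6 made up 1.97% and 2.59% of beta transcripts in NTC-Veh, 12.4%, 10.2% and 12.3% in NTC-CCl4, 2.02% and 1.44% in sgBap1-Veh, and 12.2%, 14.0% and 11.6% in sgBap1-CCl4. The mean share of Tubb5 was 16.6% in NTC-Veh and 18.0% in NTC-CCl4, and by liver it was 13.6% and 13.1% in sgBap1-Veh and 18.4%, 18.2% and 19.5% in sgBap1-CCl4, without overlap. The mean share of Tubb2a was 22.4% in NTC-Veh and 31.0% in NTC-CCl4, but 32.6% in sgBap1-Veh and 25.4% in sgBap1-CCl4, so the means moved in opposite directions under the guides. By liver it was 24.6% and 20.2% against 28.3%, 34.2% and 30.6% with the control guide. With the Bap1 guide it was 30.8% and 34.4% against 29.3%, 20.8% and 26.3%, close at the edges and lowest in replicate 2. The level of Tubb2a rose under both guides, and the change of its share was not tested. Tubb3 and Tubb2b stayed minor, with mean shares of 0.228% and 0.37% in NTC-CCl4.

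**Figure D3:**
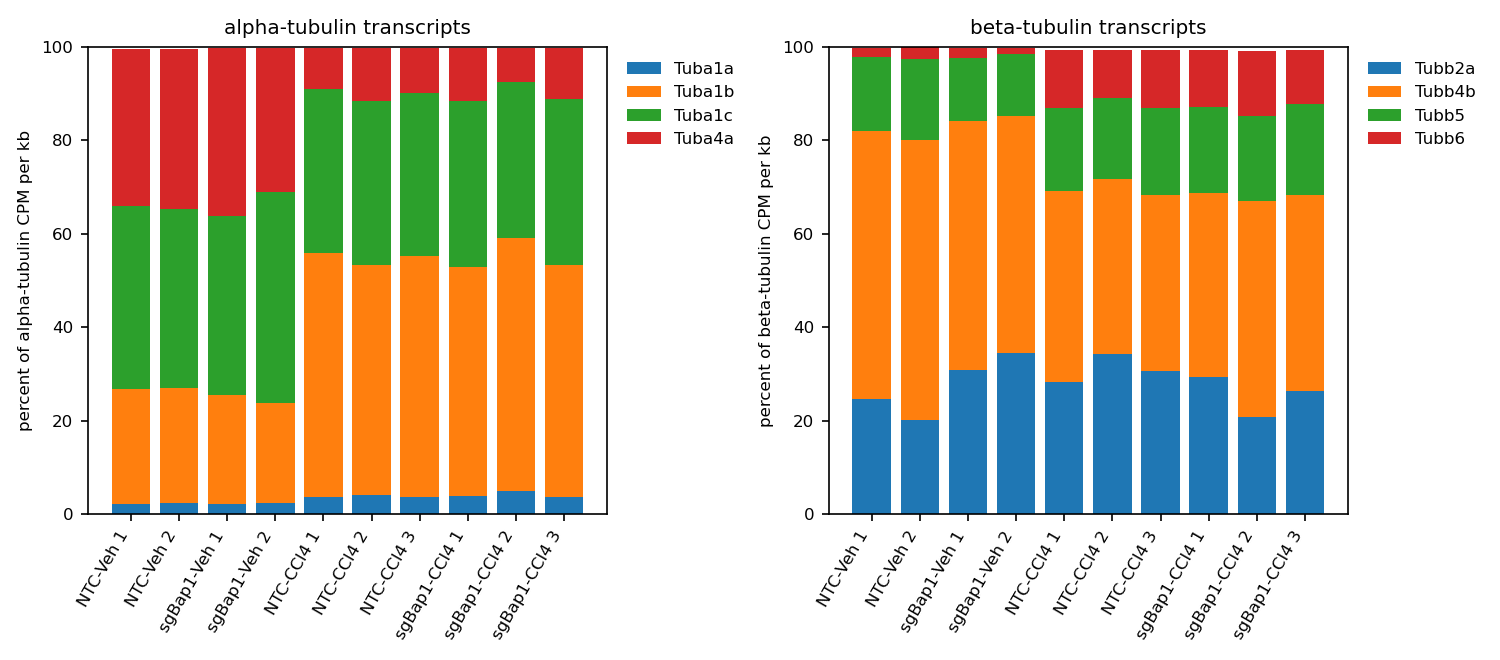
Percent of alpha-tubulin (left) and beta-tubulin (right) transcripts per kilobase (vertical) made up by each isotype in each liver (horizontal); isotypes under 1% in all livers are not drawn. The share of Tuba1b in CCl4 livers lies between 49.1% and 54.1% and that of Tuba4a between 7.34% and 11.3%.

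The comparison of guides asks what the Bap1 guide changes without and with injury. These comparisons and the interaction share their livers with the CCl4 comparisons above. In sgBap1-Veh against NTC-Veh, edgeR called 0 of 10 isotypes, 2 had an unadjusted p under 0.05, and DESeq2 called 1, against 1.96% of the 27893 genes it tested, a wider set that the shares for DESeq2 below also use. Over all tested genes edgeR called 0.523%, of which 0.364% were higher and 0.159% lower, and 12.6% had an unadjusted p under 0.05. Over the settings other than leaving out a liver, these 89 calls ran from 1 to 548. In sgBap1-CCl4 against NTC-CCl4, edgeR called 0 isotypes against 0.253% of all genes (0.147% higher and 0.106% lower). Of the isotypes 0 had an unadjusted p under 0.05 against 13.4% of all genes. DESeq2 called 0 against 1.72% (0.717% higher and 1% lower). The 43 edgeR calls over all genes with CCl4 became 3 to 480 over the same settings. For the interaction, the difference between the CCl4 responses under the guides, edgeR called 0 isotypes and 0% of all genes, 1 isotype had an unadjusted p under 0.05 against 10.6% of all genes, and DESeq2 called 1 against 1.47%.

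Tubb2a is the isotype behind the calls by DESeq2. Both sgBap1-Veh livers (98.4 and 100 CPM) lay above both NTC-Veh livers (69.7 and 46.3 CPM), for a log2 fold change of 0.78 (SE 0.19, 95% interval 0.36 to 1.19, edgeR adjusted p = 0.112, DESeq2 adjusted p = 0.00431). Over the alternatives the adjusted p for this Tubb2a value ran from 0.00431 to 0.429, and with 1 liver left out the value ran from 0.51 to 1.10. With CCl4 the guides overlapped (log2 fold change −0.13, SE 0.15, 95% interval −0.47 to 0.21, edgeR adjusted p = 0.761). The interaction of Tubb2a was −0.90 (SE 0.24, 95% interval −1.44 to −0.37, edgeR adjusted p = 0.184, DESeq2 adjusted p = 0.0176), a response to CCl4 of 4.56-fold with the control guide and of 2.44-fold with the Bap1 guide. Its adjusted p ran from 0.0176 to 0.417 over the alternatives, so the difference depends on the test used. Summed with Tubb2b the vehicle difference was 0.78 (edgeR adjusted p = 0.113) and the interaction −0.90 (edgeR adjusted p = 0.187).

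Between the vehicle groups and in the interaction the other isotypes had higher adjusted p than Tubb2a. The largest difference between the vehicle groups was that of Tubb2b, 2.02 (SE 0.96, edgeR adjusted p = 0.43) on 5 against 18 counts. Its interaction was −1.83 (SE 1.03, edgeR adjusted p = 0.591). With 1 liver left out these Tubb2b values ran from 1.06 to 6.69 and from −6.51 to −0.87. The vehicle difference of Tuba8 was −0.75 (SE 0.45, edgeR adjusted p = 0.561). Tuba1c was higher in both sgBap1-Veh livers (162 and 170 CPM) than in both NTC-Veh livers (143 and 115 CPM), for a log2 fold change of 0.37 (SE 0.15, edgeR adjusted p = 0.326). Between the vehicle groups 4 isotypes lay wholly above, Tuba1a, Tuba1c, Tubb2a and Tubb2b, 1 lay wholly below, Tuba8, and 5 overlapped. Over all tested genes 21.7% lay wholly above and 19.2% wholly below between these groups. With CCl4, Tubb4b (0.32, SE 0.14, edgeR adjusted p = 0.373) and Tubb5 (0.22, SE 0.10, edgeR adjusted p = 0.381) lay wholly above in sgBap1-CCl4, and the other 8 isotypes overlapped, while 10.1% of all tested genes lay wholly above and 10.2% wholly below. No fold is given for Tubb3 between the vehicle groups, which were both under the limit of 3 counts. The intervals of the Tuba1b differences ran from −0.30 to 0.56 with vehicle and from −0.14 to 0.56 with CCl4, and those of Tubb6 from −0.67 to 0.46 and from −0.10 to 0.70, so changes of the size seen with CCl4 lie outside them.

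**Figure D4:**
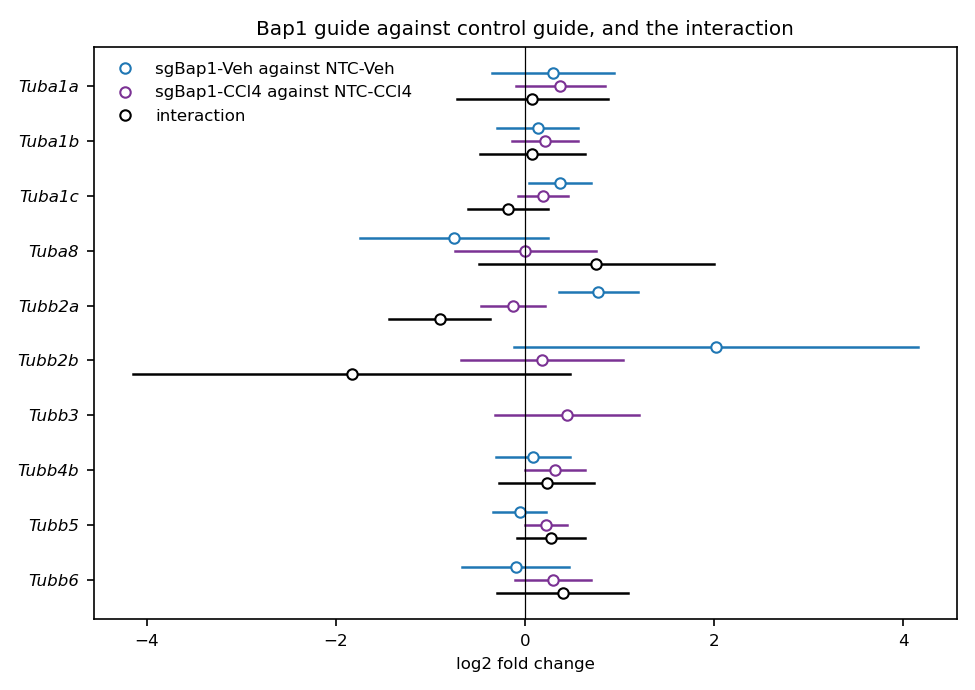
Log2 fold change of each isotype with the Bap1 guide against the control guide under vehicle and under CCl4, and the interaction (horizontal), with 95% intervals as lines; open points did not pass edgeR's threshold. Tubb3 is shown with CCl4 only. The vehicle and interaction intervals of Tubb2a lie on opposite sides of 0.

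A liver in the last group stood apart. Replicate 2 of sgBap1-CCl4 had the highest value of all 10 livers for 8 of the 10 isotypes, Tubb2a and Tubb2b being the exceptions. It also carried the adipocyte genes Adipoq (36.4 CPM) and Plin1 (34.5 CPM), which reached at most 0.0425 and 0.0188 CPM in the other livers. The summed adipocyte list was 145 CPM in it and at most 15.4 CPM elsewhere, and the summed stellate list was 1514 CPM in it and at most 748 CPM elsewhere. Sums of other marker lists were also highest in it, as given below. The part of any of these lists in the tubulin values was not tested. Without this liver 9 isotypes kept their calls in the Bap1-guide response to CCl4, with log2 fold changes of 1.94 for Tuba1a, 2.34 for Tuba1b, 0.98 for Tuba1c, 1.33 for Tubb2a, 4.05 for Tubb2b, 1.19 for Tubb4b, 2.05 for Tubb5 and 4.30 for Tubb6. Its absence moved the guide difference with CCl4 from 0.37 to 0.04 for Tuba1a, from 0.21 to 0.01 for Tuba1b, from 0.44 to 0.00 for Tubb3, from 0.32 to 0.14 for Tubb4b and from 0.30 to 0.10 for Tubb6, nearer to 0. The shift of Tuba8 was the largest and went away from 0, from 0.00 to −0.47. None of these differences was called with or without the liver.

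Among the other tubulin genes, 6 of 10 listed were tested, and edgeR called 1 with the control guide and 2 with the Bap1 guide, against 53.8% and 56.7% of all genes. The platelet isotype Tubb1 reached at most 0.411 CPM, Tuba3b and Tubal3 had 0 counts in all livers, and Tuba3a had 1. In control-guide livers 1 rose, the neuronal isotype Tubb4a (log2 fold change 1.53, edgeR adjusted p = 0.0397), a call lost without NTC-Veh replicate 1 and in 4 other fits without 1 liver. Its value with the Bap1 guide was 1.28 (edgeR adjusted p = 0.0517). Scaling by library size alone gave 5 and 4 calls in this list. In Bap1-guide livers Tube1, which encodes the centrosomal epsilon-tubulin, rose by 0.80 (edgeR adjusted p = 0.0202) and Tuba4a fell. The call of Tube1 was lost without sgBap1-Veh replicate 2 (0.59). Tubg1, the gamma-tubulin of nucleating complexes, had log2 fold changes of 0.06 (edgeR adjusted p = 0.643) and 0.01 (edgeR adjusted p = 0.949). Tubb4a and Tubg1 were named after their values were seen.

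Genes that fold tubulin were followed as a list. Of 20 genes of the CCT chaperonin, prefoldin and the tubulin cofactors, 6 rose and 3 fell in control-guide livers and 9 rose and 2 fell in Bap1-guide livers. The 9 and 11 calls stand beside 53.8% and 56.7% of all genes called, 27.5% and 29% as higher. Leaving out 1 liver gave between 4 and 8 calls in all with the control guide, against 9 with all livers, and between 7 and 11 with the Bap1 guide, against 11. Scaling by library size alone gave 15 and 16. The prefoldin subunit Vbp1 rose by 0.77 (SE 0.14, edgeR adjusted p = 0.00119) and 0.83 (SE 0.14, edgeR adjusted p = 0.000681), and Tbcb, a cofactor that receives alpha-tubulin, by 0.51 (SE 0.10, edgeR adjusted p = 0.00124) and 0.59 (SE 0.10, edgeR adjusted p = 0.000503). Pfdn2, another prefoldin subunit, fell by 0.30 on the log2 scale (edgeR adjusted p = 0.00815) with the control guide, less than the shift of all genes under scaling by library size alone, and by 0.57 (SE 0.08, edgeR adjusted p = 0.000149) with the Bap1 guide, a value that was −0.0955 with scaling by library size alone and not called. The summed level of the list was 1239, 1181, 1189 and 1255 CPM in the vehicle livers and between 1231 and 1441 CPM in the CCl4 livers, which overlap.

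None of the 3 genes of the feedback on tubulin mRNA was called higher, and 2 were called lower with the control guide and 1 with the Bap1 guide, against 26.3% and 27.7% of all genes. Scaper, which recruits the deadenylase to tubulin mRNA, fell by 0.51 on the log2 scale (SE 0.16, edgeR adjusted p = 0.018) with the control guide and by 0.63 (SE 0.16, edgeR adjusted p = 0.00644) with the Bap1 guide. Scaling by library size alone brought the Scaper values to −0.05 and −0.15, neither called. Cnot11, the subunit that Scaper binds, fell by 0.34 (SE 0.12, edgeR adjusted p = 0.0309) with the control guide, a value that scaling by library size alone turned to 0.14. Ttc5, which reads the nascent chain, was not called under either guide. The summed level of the list was 40.8, 37.7, 33.6 and 35.5 CPM in the vehicle livers and between 28.4 and 34.9 CPM in the CCl4 livers. Leaving out 1 liver brought the control-guide count of this list from 2 to between 0 and 2.

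Enzymes that modify tubulin went both ways, as all genes did, and were called at near the rate of all genes. Of 19 tested, 4 rose and 7 fell with the control guide, and 5 rose and 5 fell with the Bap1 guide. Over all genes 27.5% and 29% were higher and 26.3% and 27.7% lower. Without sgBap1-Veh replicate 1 the 10 calls with the Bap1 guide became 6. Ttll7, a polyglutamylase of beta-tubulin, rose by 1.68 (SE 0.24, edgeR adjusted p = 0.000187) and 1.39 (SE 0.23, edgeR adjusted p = 0.000549), and Vash1, a vasohibin that removes the final tyrosine of alpha-tubulin, by 1.26 (SE 0.38, edgeR adjusted p = 0.0163) and 1.19 (SE 0.37, edgeR adjusted p = 0.0194). Without sgBap1-Veh replicate 2 the Vash1 value with the Bap1 guide was 0.71 and was not called, and without replicate 1 it was 2.02, while without either NTC-Veh liver the call with the control guide was lost (1.15 and 1.37). Over the alternatives the adjusted p ran from 0.00352 to 0.0957 with the control guide and from 0.00389 to 0.136 with the Bap1 guide. Agbl3, a carboxypeptidase that trims the tails, fell by 1.57 (SE 0.23, edgeR adjusted p = 0.000247) and by 1.30 (SE 0.23, edgeR adjusted p = 0.000872), and Ttll5, a polyglutamylase, fell by 1.23 (SE 0.12, edgeR adjusted p = 1.97e-05) with the control guide and by 0.82 (edgeR adjusted p = 0.000275) with the Bap1 guide. The summed level was 191, 201, 175 and 174 CPM in the vehicle livers and between 163 and 176 CPM in the CCl4 livers.

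Of 30 tested regulators of microtubule dynamics, 13 rose and 4 fell with the control guide and 18 rose and 4 fell with the Bap1 guide, where over all genes 27.5% and 29% were higher and 26.3% and 27.7% lower. Without sgBap1-Veh replicate 2 the 22 calls with the Bap1 guide became 14, and other settings gave 17 to 25 calls with the control guide, where the fit gave 17. Stmn1, which sequesters tubulin dimers, had 4.87 and 4.77 CPM in NTC-Veh, 65.5, 43.0 and 56.2 CPM in NTC-CCl4, 5.79 and 6.66 CPM in sgBap1-Veh, and 54.8, 96.4 and 69.0 CPM in sgBap1-CCl4. It rose by 3.51 (SE 0.28, edgeR adjusted p = 1.21e-05) and 3.56 (SE 0.28, edgeR adjusted p = 1.05e-05), without overlap. Kif2c, a kinesin that takes dimers off microtubule ends in mitosis, rose by 6.07 (SE 0.43, edgeR adjusted p = 3.88e-06) and 4.69 (SE 0.38, edgeR adjusted p = 7.14e-06). Map1a, a stabilising protein of neurons and other cells, rose by 2.25 (SE 0.44, edgeR adjusted p = 0.00163) and 2.77 (SE 0.47, edgeR adjusted p = 0.000571). The 4 that fell under both guides, named after their values were seen, were Mapt, which encodes tau, and the severing proteins Katna1, Spast and Fign. The values of Katna1 (−0.30 and −0.31) and Spast (−0.38 and −0.36) were smaller than the shift of all genes of 0.47 and 0.48 under scaling by library size alone.

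The genes that use tubulin in mitosis rose with it. Over all genes 27.5% and 29% were higher and 26.3% and 27.7% lower with the control and the Bap1 guide. Of 20 spindle genes, 19 rose and 1 fell under each guide, among them Hmmr by 6.15 (SE 0.39, edgeR adjusted p = 3.21e-06) and 5.68 (SE 0.38, edgeR adjusted p = 3.73e-06). The gene that fell, named after its value was seen, was Numa1, with −0.24 (edgeR adjusted p = 0.0381) and −0.25 (edgeR adjusted p = 0.032), changes smaller than the shift of all genes under scaling by library size alone. The summed spindle level was 74.2 and 81.3 CPM in NTC-Veh, then 89.3 and 75.0 in sgBap1-Veh, 472, 295 and 407 in NTC-CCl4, and 383, 477 and 344 in sgBap1-CCl4. Of 14 proliferation markers, 14 rose with the control guide and 13 with the Bap1 guide. Their sum was 280 and 224 CPM in NTC-Veh, then 373 and 335 in sgBap1-Veh, 910, 645 and 892 in NTC-CCl4, and 784, 877 and 772 in sgBap1-CCl4, with Ccnd1 the most abundant. The part of dividing cells in the tubulin values was not tested.

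Actin genes, for the other main polymer of the cytoskeleton, also rose. Of 5 tested, 4 rose with the control guide (Actb, Actg1, Acta2 and Actc1) and 5 with the Bap1 guide (also Actg2), where 27.5% and 29% of all genes were higher. Actc1 and Actg2, both under a mean of 1 CPM, were named after their values were seen. Actb had 542 and 366 CPM in NTC-Veh, 1584, 1666 and 1696 CPM in NTC-CCl4, 555 and 538 CPM in sgBap1-Veh, and 1608, 1652 and 1515 CPM in sgBap1-CCl4. Its log2 fold changes of 1.86 (SE 0.17, edgeR adjusted p = 1.15e-05) and 1.54 (SE 0.17, edgeR adjusted p = 3.1e-05) lay within the range of those of the isotypes. Of these 8 lists, edgeR called 0 genes in either guide comparison and 0 in the interaction. At an unadjusted p under 0.05, where all genes stood at 12.6% in the vehicle comparison, 13.4% with CCl4 and 10.6% in the interaction, the counts in this order were 1, 1 and 0 of 6 other tubulins, 1, 3 and 2 of 20 folding genes, 0, 1 and 0 of 3 feedback genes and 4, 4 and 3 of 19 modifying enzymes. They were 1, 3 and 1 of 30 regulators, 2, 0 and 2 of 20 spindle genes, 4, 0 and 4 of 14 proliferation markers and 1, 0 and 0 of 5 actins. DESeq2 called 3 proliferation markers in the vehicle comparison, 1 in the interaction, 1 folding gene in the interaction and 0 in the rest. Of all genes it called 1.96% in the vehicle comparison, 1.72% with CCl4 and 1.47% in the interaction.

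**Figure D5:**
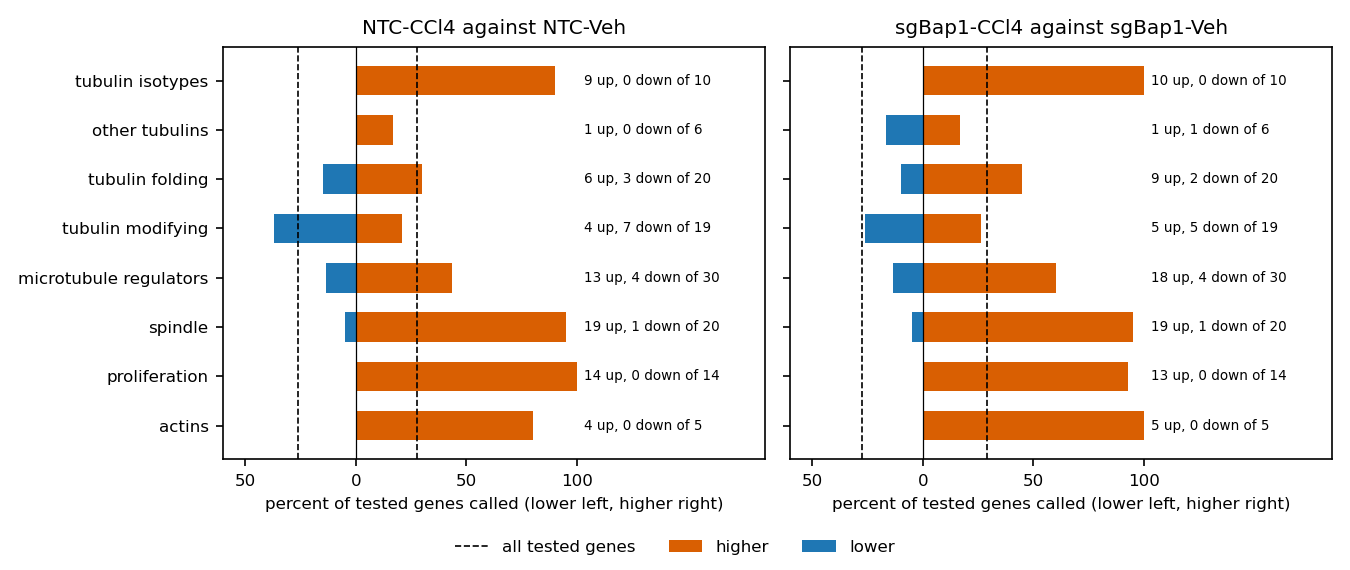
Percent of tested genes called by edgeR as higher (right of 0) or lower (left of 0) with CCl4 in the tubulin isotypes and 7 gene lists, for control-guide livers (left panel) and Bap1-guide livers (right panel); dashed lines mark the percent over all tested genes. The isotypes, spindle, proliferation and actin lists stand at 80% or more higher with the control guide, where all genes stand at 27.5%.

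Markers of cell types were counted with CCl4 beside the isotypes, and their part in the tubulin values was not tested. Each count below stands against 27.5% of all tested genes called higher and 26.3% lower with the control guide, and 29% and 27.7% with the Bap1 guide. The counts of the bile duct, neuron and Schwann cell lists are near these shares. The endothelial count with the control guide, 3 of 7 called in all, stands against 53.8% of all genes. Of 10 hepatocyte markers, 9 fell with the control guide and 6 with the Bap1 guide, with Alb the most abundant. Their sum was 164774 and 133485 CPM in NTC-Veh, then 118849 and 125112 in sgBap1-Veh, 78360, 85607 and 74682 in NTC-CCl4, and 87542, 68386 and 87926 in sgBap1-CCl4. These are the defining genes of the labelled tissue, and their sum was high in each library. Cyp2e1 fell most of the list, with log2 fold changes of −5.71 (edgeR adjusted p = 1.91e-06) and −6.08 (edgeR adjusted p = 1.21e-06). With the control guide it went from 10200 and 9289 CPM to 133, 222 and 202 CPM. With the Bap1 guide it went from 6799 and 8321 CPM to 69.4, 118 and 147 CPM. Of 10 macrophage and monocyte markers, 7 rose with the control guide, and 6 rose while Clec4f and Timd4, markers of resident Kupffer cells, fell with the Bap1 guide, both named after their values were seen. That sum was 246 and 178 CPM in NTC-Veh, then 480 and 350 in sgBap1-Veh, 723, 773 and 919 in NTC-CCl4, and 772, 946 and 715 in sgBap1-CCl4, with Lyz2 the most abundant.

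The macrophage sum was higher in both sgBap1-Veh livers than in both NTC-Veh livers, as was Tubb2a, and so were other sums, among them those of the proliferation and actin lists. In sgBap1-Veh against NTC-Veh edgeR called 1 of the 10 macrophage markers, Csf1r (log2 fold change 1.06, SE 0.18, edgeR adjusted p = 0.048), 8 had an unadjusted p under 0.05 (12.6% of all genes), and DESeq2 called 8 (1.96% of all genes). The Csf1r call was lost in 11 of 19 alternatives, with the edgeR or DESeq2 adjusted p from 2.55e-05 to 0.262. In the interaction 9 macrophage markers had an unadjusted p under 0.05 (10.6% of all genes), edgeR called 0 and DESeq2 called 6 (1.47% of all genes). The part of these cells in the Tubb2a values was not tested.

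Of 8 stellate cell and fibroblast markers, 6 rose with the control guide and 5 with the Bap1 guide, with Dcn the most abundant. Their sum was 241 and 297 CPM in NTC-Veh, then 330 and 287 in sgBap1-Veh, 594, 748 and 599 in NTC-CCl4, and 701, 1514 and 554 in sgBap1-CCl4. All 6 tested neutrophil markers rose under both guides, and their sum was 10.9 and 5.85 CPM in NTC-Veh, then 12.2 and 9.43 in sgBap1-Veh, 29.5, 38.8 and 38.9 in NTC-CCl4, and 40.9, 42.3 and 32.5 in sgBap1-CCl4, with Csf3r the most abundant. Both sums were higher in each CCl4 liver than in each vehicle liver. Of 6 bile duct markers, Sox9 and Spp1 rose under both guides, and Spp1, which other cells also make, was the most abundant. Their sum was 43.2 and 51.5 CPM in NTC-Veh, then 43.4 and 49.6 in sgBap1-Veh, 192, 249 and 199 in NTC-CCl4, and 351, 370 and 273 in sgBap1-CCl4.

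Endothelial and platelet markers were also followed. Of 7 endothelial markers, 3 rose with the control guide, and 4 rose and 2 fell with the Bap1 guide. The 6 calls with the Bap1 guide ran from 3 to 6 over the settings other than leaving out a liver. The endothelial sums were 168 and 156 CPM in NTC-Veh, then 221 and 158 in sgBap1-Veh. They were 235, 203 and 252 in NTC-CCl4 and 217, 258 and 236 in sgBap1-CCl4, Cdh5 being the most abundant. Of 4 tested platelet markers Pf4 and Ppbp, the latter named after its values were seen, rose under both guides, and the 2 calls with the Bap1 guide became 1 without sgBap1-CCl4 replicate 1 or 2. The sum, led by Itga2b, was 4.0 and 3.91 CPM in NTC-Veh, then 5.46 and 4.34 in sgBap1-Veh, 10.8, 11.9 and 8.61 in NTC-CCl4, and 11.6, 14.2 and 9.27 in sgBap1-CCl4.

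Of 8 genes listed for neurons, where Tubb3 is known from, 4 were at or near 0. Elavl4 had 0 counts in all livers, Elavl3 had 2, Snap25 had 1 and Nefl had 3 over the 10 libraries. Stmn2 had 52 counts in 9 livers, and Rbfox3 had a mean of 0.452 CPM and was not called. Of the 3 neuron-list genes that were tested, Uchl1, named after its values were seen, rose by 3.32 (edgeR adjusted p = 0.00304) and 4.06 (edgeR adjusted p = 0.000643), and Syt1, the most abundant at a mean of 12.2 CPM, fell under both guides. The list sum is mostly Syt1, since Rbfox3 (0.452), Uchl1 (0.269) and Stmn2 (0.0973) had means far under that of Syt1, so its fall with CCl4 is that of 1 gene. It was 25.1 and 23.0 CPM in NTC-Veh, then 19.4 and 20.7 in sgBap1-Veh, 9.57, 7.46 and 9.08 in NTC-CCl4, and 6.18, 4.06 and 5.8 in sgBap1-CCl4. Of 3 tested Schwann cell genes Ncam1, the most abundant, rose under both guides, and their sum was 2.29 and 1.83 CPM in NTC-Veh, then 2.23 and 1.87 in sgBap1-Veh, 3.37, 3.46 and 2.81 in NTC-CCl4, and 2.61, 7.74 and 3.1 in sgBap1-CCl4. The liver highest for the Schwann list, sgBap1-CCl4 replicate 2, was also the highest for Tubb3. It was the highest for 8 of the 10 isotypes in all, and for the stellate, muscle, platelet and adipocyte sums. The macrophage, neutrophil, endothelial, bile duct and mesothelial sums also peaked in this liver, as did those of the spindle, actin and regulator lists. Its hepatocyte sum, 68386 CPM, was the lowest of the 10 livers.

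The remaining markers bear on tissue taken along with the liver. Of 2 tested muscle genes Des, which stellate cells also express and which was the most abundant, rose under both guides, and Myh4 had 0 counts in all livers. The muscle sum was 5.5 and 6.62 CPM in NTC-Veh, then 6.35 and 5.95 in sgBap1-Veh, 19.0, 19.9 and 16.1 in NTC-CCl4, and 20.1, 27.8 and 17.7 in sgBap1-CCl4. Cidec, the tested adipocyte gene and the most abundant, which fatty hepatocytes also express, rose under both guides by 4.16 (edgeR adjusted p = 0.0177) and 4.24 (edgeR adjusted p = 0.0137). The call of Cidec was lost without either NTC-Veh liver and without sgBap1-Veh replicate 1, its adjusted p reached 0.0895 and 0.091, and its value with the Bap1 guide was 2.77 without sgBap1-CCl4 replicate 2. The list sums were 0.817 and 0.887 CPM in NTC-Veh, then 0.565 and 2.21 in sgBap1-Veh, 14.8, 14.8 and 15.4 in NTC-CCl4, and 9.98, 145 and 8.14 in sgBap1-CCl4. Of 5 mesothelial genes edgeR called 0 under each guide and 0 had an unadjusted p under 0.05, while DESeq2 called 0 and 1. Without NTC-Veh replicate 2, the vehicle liver with the higher sum, edgeR called 4 with the control guide. Their sum, led by Msln, was 0.871 and 15.7 CPM in NTC-Veh, then 6.22 and 11.6 in sgBap1-Veh, 4.73, 6.5 and 14.3 in NTC-CCl4, and 8.67, 19.1 and 7.1 in sgBap1-CCl4, which overlap.

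The sequence just upstream is shown for Tubb2a, the isotype that DESeq2 called between the vehicle groups, and Tubb4b, which had the highest level per length in the vehicle livers. RefSeq promoter entries on GRCm38.p6 were matched for 8 of the 10 members, all but Tubb2b and Tubb6. The windows of 150 bases before the transcripts are chr13:34078009-34078158 and chr2:25224703-25224852, both on the minus strand, with matches to the searched motifs in capitals.
Tubb2a: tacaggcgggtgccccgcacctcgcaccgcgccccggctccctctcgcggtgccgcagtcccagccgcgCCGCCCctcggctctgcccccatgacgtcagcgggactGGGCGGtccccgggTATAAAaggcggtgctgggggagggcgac
Tubb4b: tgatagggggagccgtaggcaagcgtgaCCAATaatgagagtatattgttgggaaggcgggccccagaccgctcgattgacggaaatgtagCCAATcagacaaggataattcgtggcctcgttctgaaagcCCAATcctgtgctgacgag
The motifs searched on both strands of the 250 bases before each start were the CCAAT box, found in 33.8% of all 32817 promoters, the GC box GGGCGG (32.7%), the TATA box TATAAA (12.4%), the CHR element TTTGAA of cell cycle genes (16%) and the AP-1 site TGAGTCA (4.46%). Tubb2a held 2 of GGGCGG and 1 of TATAAA, and Tubb4b held 5 of CCAAT, 1 of GGGCGG and 1 of TTTGAA. Such matches are letters in a window and not sites of binding.

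For the isotypes with the largest changes in control-guide livers, genes of similar pattern were listed as a description. Pearson r was taken on log2 of CPM plus 1 over the 10 livers, which fall into a CCl4 and a vehicle cluster. Among 10425 genes, Tubb3 had the highest r with Kctd10 (0.996), Ddx39 (0.995) and Rhoj (0.994). For Tubb2b the highest were Ptpn23 (0.991), Kif5b (0.989) and 1700017B05Rik (0.988). With 1 added, the vehicle livers of Tubb3, at 0 to 0.0538 CPM, lie close together on this scale. Kctd10 had 17.2 and 16.7 CPM in NTC-Veh and 30.3, 31.9 and 31.8 CPM in NTC-CCl4. Kif5b, a motor that moves cargo along microtubules, had 44.3 and 43.0 CPM in NTC-Veh and 60.8, 60.9 and 68.4 CPM in NTC-CCl4. The part of the distance between the clusters in these r values was not tested.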

How the data were processed

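The deposited table holds estimated counts per gene symbol, 1 column per liver, which the authors made from stranded mRNA libraries with STAR 2.7.6a and Salmon 1.4.0 on GRCm38, and 9.22% of values were not whole. No column was left unused. The members and gene lists were chosen with earlier results of these data known. Counts were rounded to whole numbers, filtered with filterByExpr on the 4 groups, scaled by TMM and fitted in 1 model of 4 group means with edgeR 4.0.16 (estimateDisp, glmQLFit with robust = TRUE, glmQLFTest, two-sided) in R 4.3.3 with limma 3.58.1, and p-values were adjusted by Benjamini-Hochberg over all tested genes at 0.05. The interaction is the CCl4 response with the Bap1 guide minus that with the control guide. The steps were tested on simulated data. CPM per kb divides by the length of a reference transcript. Intervals are 95%, exact for ratios of counts. Named genes were all members, at most 4 called genes per list and comparison with the largest log2 fold change and a mean of at least 1 CPM, the most abundant marker of a cell type, markers at 0, Bap1, and for the 2 members with the largest change and a mean of at least 1 CPM the 3 most similar genes with a mean of at least 5 CPM; other genes were named after their values were seen. Alternatives were DESeq2 1.42.0 (Wald test), its size factors, library size alone, other filters, a replicate block, fits to the compared groups alone, near-identical genes summed, each liver left out, and, chosen after seeing the data, robust dispersions and library sizes before the filter. Sequences were read with Biopython 1.88.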

Additional observations from a re-analysis of the deposited data

How the results depend on the processing

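Over 20 alternatives, 920 of 950 values of the isotypes kept direction and side of the threshold, 10 lost a call (Tuba8 with the Bap1 guide), 2 gained one and 18 uncalled values changed sign, and the cause was not tested. With each liver left out, 9 isotypes were called with CCl4 under the control guide and 9 to 10 under the Bap1 guide, and 0 in the guide comparisons and the interaction; a lone liver left in a group is assumed to vary like the others. DESeq2 called 1 isotype in the vehicle guide comparison and 1 in the interaction. The labels do not say that replicate numbers pair mice. Deviations from group means had r of −0.212 to 0.133 over 13 same-numbered pairs. These r values cannot exclude pairing, since the deviations of 2 livers in a group mirror each other. With the replicate numbers as a block the counts were 9, 10, 0, 0 and 0. Values that changed sign were, for sgBap1-CCl4 against NTC-CCl4, Tuba8 with the replicate block (−0.0933) and Tubb2b summed with its copy (−0.12), the interactions of Tuba1a and Tuba1b summed (−0.0804), and, with library size alone, Cnot11 with CCl4 (0.14, control guide) and Tuba4a (0.0235, Bap1 guide). With 1 liver left out the vehicle guide differences ran from −0.16 to 0.0345 (Tubb5), −0.0290 to 0.21 (Tubb4b), −0.0314 to 0.28 (Tuba1b) and −0.47 to 0.16 (Tubb6), those with CCl4 from −0.0869 to 0.42 (Tubb2b) and −0.47 to 0.30 (Tuba8), and the interactions from −0.26 to 0.23 (Tuba1a) and −0.12 to 0.24 (Tuba1b). The size of guide difference that 2 or 3 mice per guide would reveal was not tested.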
